A study of Mus with 8 samples.

Results

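The NR4A nuclear receptors are a family of 3 genes, Nr4a1, Nr4a2 and Nr4a3, taken here by name from the 30743 genes that had a named probe set. Each of the 3 was measured by 1 probe set annotated with that gene alone, so no choice between probe sets was needed. The tissue was brown fat from between the shoulder blades, which burns lipid to make heat, and each of 8 mice gave RNA for 1 Affymetrix array. Of these mice, 4 were labelled HILPDA KO and 4 wild type (WT), all on a C57BL/6 background, and the arrays were replicates 1 to 4 of each genotype. Hilpda encodes a small lipid droplet protein that inhibits adipose triglyceride lipase. The labels name no treatment, age or housing temperature. They do not say in which cells Hilpda was deleted. The family was chosen by its log2 values in KO against WT within replicates 1 and 2 and within replicates 3 and 4, which were known beforehand. Those values are therefore given as a description, with no test of the 3 genes, and support nothing further.

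NR4A proteins are transcription factors of the nuclear receptor family that are called orphan receptors, because their ligand pocket is largely filled by their own side chains and their activity follows their abundance. They bind the NBRE response element as monomers, and Nr4a1 and Nr4a2 proteins also pair with RXR receptors. In brown fat their genes are known as immediate early genes: noradrenaline acts through its receptors, cAMP and protein kinase A, and the phosphorylated factor CREB then switches them on within a short time and only briefly. Their transcript level is therefore known to follow the state of the tissue at the moment of collection.

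The arrays form 2 sets that the labels do not name. Over named genes the median log2 value was 3.92 to 3.99 in replicates 1 and 2 of both genotypes (set 1) and 4.92 to 4.96 in replicates 3 and 4 (set 2), so levels are compared within a set only. Brown fat markers were high on every array: Ucp1, the uncoupling protein of brown adipocytes, read 19.68 to 19.93 and Cidea 18.76 to 19.37. Other labels went less well with the values. Hilpda, the targeted gene, read 4.45 and 4.37 in KO replicates 1 and 2 against 4.37 and 4.28 in WT replicates 1 and 2, and 5.60 and 5.51 in KO replicates 3 and 4 against 6.00 and 5.92 in WT replicates 3 and 4. It was lower in the arrays labelled KO in set 2 only. Its signal was low on every array, at 0.47 to 1.20 above the 95th percentile of 1085 olfactory receptor genes. A difference in set 1 could thus be missed. Whether the probe set overlaps the deletion is unknown here. Hilpda therefore does not check the labels of set 1, and every sign of KO minus WT below rests on the labels. An exchange of labels within a set would turn all signs of that set, and it was not tested. The Y-linked genes Uty, Eif2s3y and Kdm5d read at least 5.45, 4.57 and 3.04 above the 95th percentile of 1085 olfactory receptor genes on every array, while Xist reached at most -0.27 relative to it, which goes against the label of female mice. "KO" below means an array labelled KO.

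All 3 NR4A transcripts were lower in KO than in WT brown fat in set 1 and higher in KO than in WT in set 2. In neither set did any KO value of the 3 genes overlap with a WT value. Of all genes, 19.4% had both KO arrays below both WT arrays in set 1 and 24% had both above in set 2, shares from which nothing is read here because the rule used this contrast. In set 1 the KO means were 21.2-fold, 4.16-fold and 2.39-fold lower for Nr4a1, Nr4a2 and Nr4a3. In set 2 they were 22.3-fold, 5.28-fold and 6.79-fold higher, on the scale of the deposited values. Since the tissue was measured in bulk, fewer cells that express a gene and less RNA per cell cannot be told apart.

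Nr4a1, also known as Nur77, had the widest swing. In set 1 it read 6.29 and 7.63 in KO replicates 1 and 2, and 12.71 and 10.01 in WT replicates 1 and 2. In set 2 it read 15.44 and 14.53 in KO replicates 3 and 4, and 8.23 and 12.79 in WT replicates 3 and 4. Both KO arrays were thus the low ones in the first set and the high ones in the second. KO minus WT was -4.41 (SE 1.50) in set 1 and 4.48 (SE 1.50) in set 2, where SE is that of the limma fit over all arrays. The WT arrays themselves were far apart, by 2.70 in set 1 and 4.56 in set 2. Set 2 therefore rests on which WT mouse is used: the difference was 2.20 without WT replicate 3 and 6.76 without WT replicate 4. The spread of Nr4a1 between arrays of the same genotype and set, with an SD of 1.96, was above that of 99.9% of genes.

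Nr4a2, also known as Nurr1, moved by less and with a smaller spread. It read 5.40 and 6.03 in KO replicates 1 and 2 against 7.59 and 7.96 in WT replicates 1 and 2. In set 2 it read 11.98 and 10.86 in KO replicates 3 and 4 against 8.54 and 9.50 in WT replicates 3 and 4. The gap between the nearest KO and WT arrays was 1.56 in set 1 and 1.36 in set 2, wider than the distance between any 2 arrays of the same genotype within a set. KO minus WT was -2.06 (SE 0.45) in set 1 and 2.40 (SE 0.45) in set 2.

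Nr4a3, also known as Nor1, had the closest pairs of KO arrays. Its values were 4.48 and 4.72 in KO replicates 1 and 2, against 5.94 and 5.77 in WT replicates 1 and 2. In set 2 they were 9.67 and 9.49 in KO replicates 3 and 4, against 6.22 and 7.42 in WT replicates 3 and 4. KO arrays were again the lowest in set 1 and the highest in set 2, with differences of -1.26 (SE 0.35) and 2.76 (SE 0.35). In set 1 the KO values lay only 0.51 and 0.85 above the 95th percentile of olfactory receptor genes, a group of mostly low signal. Every other NR4A value lay at least 1.43 above that percentile, and Nr4a1 at least 2.32.

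**Figure D1:**
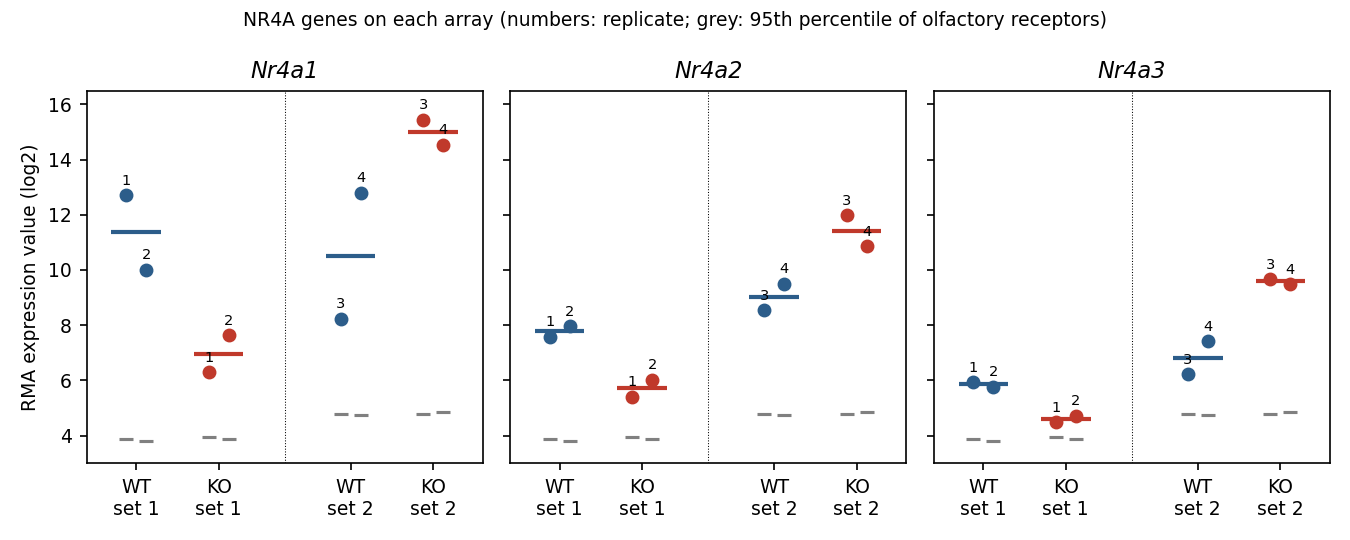
RMA expression values (log2, vertical axis) of Nr4a1, Nr4a2 and Nr4a3 on each of 8 arrays, by genotype and set; points are mice with their replicate number, coloured bars are means of 2 mice, and grey ticks are the 95th percentile of olfactory receptor genes. Red KO points lie below blue WT points in set 1 and above them in set 2 for all 3 genes.

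The 3 genes ranked the arrays almost alike. The family was chosen on KO against WT within each set, which fixes much of these orders, so nothing is read from them. In set 2 all 3 had the order KO replicate 3, KO replicate 4, WT replicate 4, WT replicate 3 from high to low, an order held by 7.17% of all genes. In set 1 Nr4a1 and Nr4a3 had the order WT replicate 1, WT replicate 2, KO replicate 2, KO replicate 1, and Nr4a2 differed only in that WT replicate 2 came first. WT replicate 3 was the array with the least Nr4a1, Nr4a2 and Nr4a3 in its set, at -4.52, -1.68 and -1.98 relative to the mean of the set. After the mean of its set was taken from each value, Nr4a2 and Nr4a3 lay on average 0.36 apart over 8 arrays. Nr4a1 lay 1.39 from Nr4a2 and 1.42 from Nr4a3, because its swings were larger.

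Averaged over both sets with equal weight, KO minus WT was 0.04 (SE 1.06) for Nr4a1, 0.17 (SE 0.32) for Nr4a2 and 0.75 (SE 0.25) for Nr4a3, so opposite differences largely cancelled. For that average limma with Benjamini-Hochberg adjustment called 0 of the 30743 genes, or 0%, while 2194 (7.14%) had an unadjusted p under 0.05. Ordinary least squares also called 0%, with 1898 genes (6.17%) at an unadjusted p under 0.05. Within set 1 limma called 0%, with 2376 genes (7.73%) at an unadjusted p under 0.05. Within set 2 it called 1 gene (Dbp), or 0.00325%, with 4633 (15.1%) at that unadjusted p.

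The change of KO minus WT from set 1 to set 2 was 8.88 (SE 2.12) for Nr4a1, 4.46 (SE 0.64) for Nr4a2 and 4.02 (SE 0.49) for Nr4a3. Over all genes limma called this change for 152, or 0.494% (14.9% at an unadjusted p under 0.05). No call is given for the 3 members, which were chosen on these differences. The counts cover all genes tested, the members included, so they are not independent of the members. Every called gene had opposite signs in the sets: 115 (0.374%) were lower in KO in set 1 and higher in set 2, as the NR4A genes were, and 37 (0.12%) the reverse. The count is fragile, since it was 4 with trended and robust variances, 3 with the replicate number as a block, and 0 to 10 with 1 array left out: 0 without KO replicate 1 or WT replicate 1, 2 or 3, 1 without KO replicate 4, 4 without KO replicate 2, 8 without KO replicate 3 and 10 without WT replicate 4. Without overlap of KO and WT, the members' pattern was held by 7.39% of all genes and by 13.1% of the genes with a mean above the median, and the reverse pattern by 5.28% and 6.06%. Differences of 1 or more in both sets in the members' directions were held by 0.179% of all genes and 0.358% of those above the median. The rule chose the members on this contrast, so nothing is read from these shares.

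**Figure D2:**
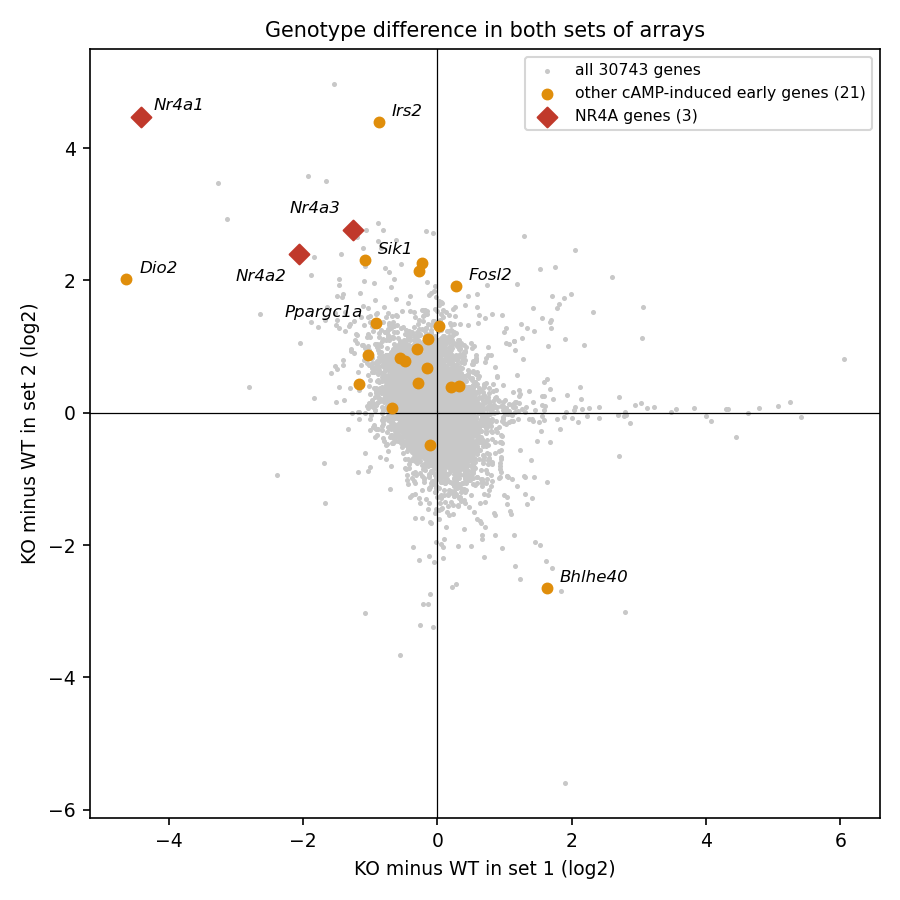
KO minus WT (log2) in set 1 (horizontal axis) against set 2 (vertical axis) for all 30743 genes (grey), 21 other cAMP-induced early genes (orange) and the 3 NR4A genes (red diamonds). The NR4A genes lie in the upper left, lower in KO in set 1 and higher in KO in set 2, beside Dio2, Irs2 and Sik1.

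Upstream of the NR4A genes stands the cAMP cascade, from receptors over adenylyl cyclases to protein kinase A. Of 18 genes listed, 13 were measured, and the others were not analysed here. None of the 13 was called in any of the 4 comparisons, and their median KO minus WT was 0.023 in set 1 and -0.113 in set 2, against 0.004 and 0.017 over all genes. Prkaca, a catalytic subunit of protein kinase A, read 12.14 and 12.54 in KO and 11.79 and 12.23 in WT of set 1, where the genotypes overlapped. In set 2 it read 13.32 and 13.02 in KO against 14.39 and 14.10 in WT, lower by 1.08 while the NR4A transcripts were higher. Prkar2b, a regulatory subunit, differed by 0.01 and -0.67 in the sets, and Adcy6, an adenylyl cyclase, by -0.19 and -0.81. Mc5r, a melanocortin receptor that raises cAMP, was higher in KO by 1.90 in set 1 and by 1.11 in set 2, and so did not turn with the NR4A genes. Prkar2a, another regulatory subunit, was the gene of this list with the members' pattern without overlap, at -0.56 and 0.12. This is 7.69% of the list, against 7.39% of all genes and 13.1% of those above the median level, as all 13 were.

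Among 17 measured factors that act on NR4A genes (CREB and its coactivators, MEF2, SRF, class II histone deacetylases and salt-inducible kinases), 9 differed below and 8 above 0 in set 1, with medians of -0.009 in set 1 and 0.033 in set 2. Crem, Srf, Hdac4 and Sik1 shared the members' pattern without overlap in either set. They are 23.5% of the list, against 7.39% of all genes and 13.1% of those above the median level. Crem and Sik1 are also in the list of other cAMP-induced early genes. Srf, the factor of serum response elements in immediate early promoters, read 5.56 and 5.47 in KO against 6.21 and 6.06 in WT of set 1, and 7.96 and 7.80 in KO against 6.92 and 7.18 in WT of set 2. It was the only gene of this list called for the change between the sets, by 1.45 (SE 0.18, limma adjusted p = 0.0438, 0.0318 to 0.158 over 13 alternatives). Crem, whose short product ICER represses CREB targets, differed by -0.48 and 0.79 and was not called (limma adjusted p = 0.0869). The kinase gene Sik3 (0.11 and -0.38) and the MEF2 gene Mef2d (0.10 and -0.35) ran the other way, and neither was called.

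The other cAMP-induced early genes mostly leaned the same way as the NR4A genes. Of 24 genes listed, 21 were measured. In set 1, 16 of the 21 were lower in KO with a median of -0.286, and in set 2, 19 of the 21 were higher with a median of 0.873, against medians of 0.004 and 0.017 over all genes. Lower in set 1 and higher in set 2 were 15 of the 21, or 71.4%, against 29.7% of all genes and 40.1% of those above the median level. Without overlap it was 8 of the 21, or 38.1%, against 7.39% of all genes and 13.1% of those above the median level. These 8 were Atf3, Sik1, Crem, Gem, Pde4b, Irs2, Ier2 and Klf4. None of the 21 was called by limma in any of the 4 comparisons, and their list was drawn up with earlier results of these data known.

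Sik1, a kinase induced by cAMP that keeps CREB coactivators out of the nucleus, read 5.92 and 6.08 in KO against 7.22 and 6.93 in WT of set 1. In set 2 it read 10.52 and 9.03 in KO against 7.01 and 7.92 in WT. KO arrays were the low pair and then the high pair, as for the NR4A genes, with differences of -1.08 and 2.31. Irs2, an adaptor of insulin receptor signalling and a CREB target, read 9.70 and 9.19 against 10.67 and 9.96 in set 1, and 14.76 and 14.09 against 9.04 and 11.02 in set 2 (KO first), differences of -0.87 and 4.40. Dio2, the deiodinase that makes active thyroid hormone in stimulated brown fat, read 6.53 and 7.38 in KO against 12.01 and 11.15 in WT of set 1. It read 14.39 and 12.01 against 10.28 and 12.09 in set 2, where KO replicate 4 lay between the WT arrays. Ppargc1a, the coactivator of mitochondrial genes, differed by -0.92 and 1.36, with overlap in set 1 only.

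Other early genes had no single pattern. Fosl2, an AP-1 subunit, read 5.36 and 5.25 against 4.89 and 5.17 in set 1 (KO first), and 7.11 and 8.69 against 5.91 and 6.06 in set 2, so it was higher in KO in both. Fos differed by -0.11 and -0.49 and overlapped in both sets, and Fosb differed by 0.03 and 1.31. Egr1, a zinc finger factor of the early response, differed by -0.55 and 0.83 and overlapped in both sets. Bhlhe40, a repressor that is also a clock gene, turned the opposite way at 1.63 and -2.65. Per1, a clock gene that cAMP induces, was at 0.32 and 0.40, and Rgs2, an inhibitor of G protein signalling, at -0.23 and 2.26, with WT replicate 3 at 11.62 and all other arrays between 14.27 and 15.53. In the list of 25 other immediate early genes 15 were higher and 10 lower in set 1 (median 0.019) and 18 higher and 7 lower in set 2 (median 0.17). Ccn2 (-0.14 and 0.15) and Trib1 (-1.78 and 1.29) among them shared the members' pattern without overlap. They are 8% of the list, against 7.39% of all genes and 13.1% of those above the median level. The matrix protein gene Ccn1 (1.68 and 1.37) and the stress gene Gadd45g (1.02 and 1.29) were higher in KO in both sets, Gadd45b was at 1.43 and 0.17, and Klf10 at 0.17 and -1.54. No gene of that list was called.

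The 3 NR4A genes were set beside the 39 other nuclear receptors measured. Over those 39, KO minus WT ran from -0.75 (Esrrg) to 1.30 (Nr1d1) in set 1 and from -1.24 (Ppara) to 0.56 (Esr1) in set 2. All 3 NR4A differences lay outside both ranges, a comparison that was not tested since the members were chosen for theirs. In set 1 Nr4a3, at -1.26, was outside by its sign and not by its size, given Nr1d1 at 1.30. None of the 39 was called. Vdr, Esr1 and Pgr shared the members' pattern without overlap, or 7.69% of the list, against 7.39% of all genes and 13.1% of those above the median level. Ppara, the fatty acid receptor, differed by -0.38 and -1.24, Esrrg by -0.75 and -0.47, the glucocorticoid receptor Nr3c1 by 0.16 and -0.71, and Pparg, the master factor of adipocytes, by -0.22 and -0.10.

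Partners of NR4A proteins moved little. Of 12 dimer partners and coregulators listed, 10 were measured, 5 higher and 5 lower in set 1 (median -0.003) and all 10 lower in set 2 (median -0.182), with none called. Rxra, a dimer partner, read 7.37 and 7.32 in KO against 7.30 and 7.46 in WT of set 1, and 7.87 and 7.93 against 8.31 and 8.04 in set 2. Rxrb differed by -0.04 and -0.23, and the coactivator gene Ncoa1 by -0.01 and -0.17.

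Genes reported to respond to NR4A receptors had medians near 0. Of 21 listed, 19 were measured, at 0.000 in set 1 and -0.008 in set 2. None was called and none shared the members' pattern without overlap, which 7.39% of all genes and 13.1% of those above the median level held. Lpin1, a phosphatidate phosphatase, was higher in KO by 0.75 and 0.87. Ucp3, a mitochondrial carrier, differed by -0.91 (SE 0.53) averaged over the sets, and Fbp1, a gluconeogenic enzyme, at 1.17 and 0.16. Pygm, the glycogen phosphorylase of muscle, was at -0.09 and -1.67, and 3 genes of this list (Eno3, Pgam2 and Pygm) are also among the skeletal muscle markers. Ucp1 lay at or near the highest value of each array.

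Genes with the pattern most like that of each NR4A gene were found by the mean absolute distance of values, each taken relative to the mean of its set, over 8 arrays. The search covered genes with a mean above the median of all genes and a spread in keeping with that of the member, 58 for Nr4a1, 410 for Nr4a2 and 493 for Nr4a3. Nearest to Nr4a1 were Dusp6 (0.94), a phosphatase of ERK, and Dio2 (0.94), then Irf4 (1.12), a transcription factor of the brown fat response to cold, the amino acid transporter gene Slc7a8 (1.19) and Irs2 (1.24). Nearest to Nr4a2 were Sik1 (0.30), the intermediate filament gene Synm (0.34), Slc3a2 (0.37), the heavy chain of amino acid transporters, the chromatin remodeller gene Chd1 (0.37) and the dipeptidase gene Dpep1 (0.38). Nearest to Nr4a3 were Plk3 (0.21), a kinase, Rnf125 (0.23), a ubiquitin ligase, Adgrg2 (0.25), an adhesion receptor, Synm (0.26) and Sik1 (0.27). Sik1 and Synm were thus near to both Nr4a2 and Nr4a3. The points share arrays and normalization, and the distances are a description.

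**Figure D3:**
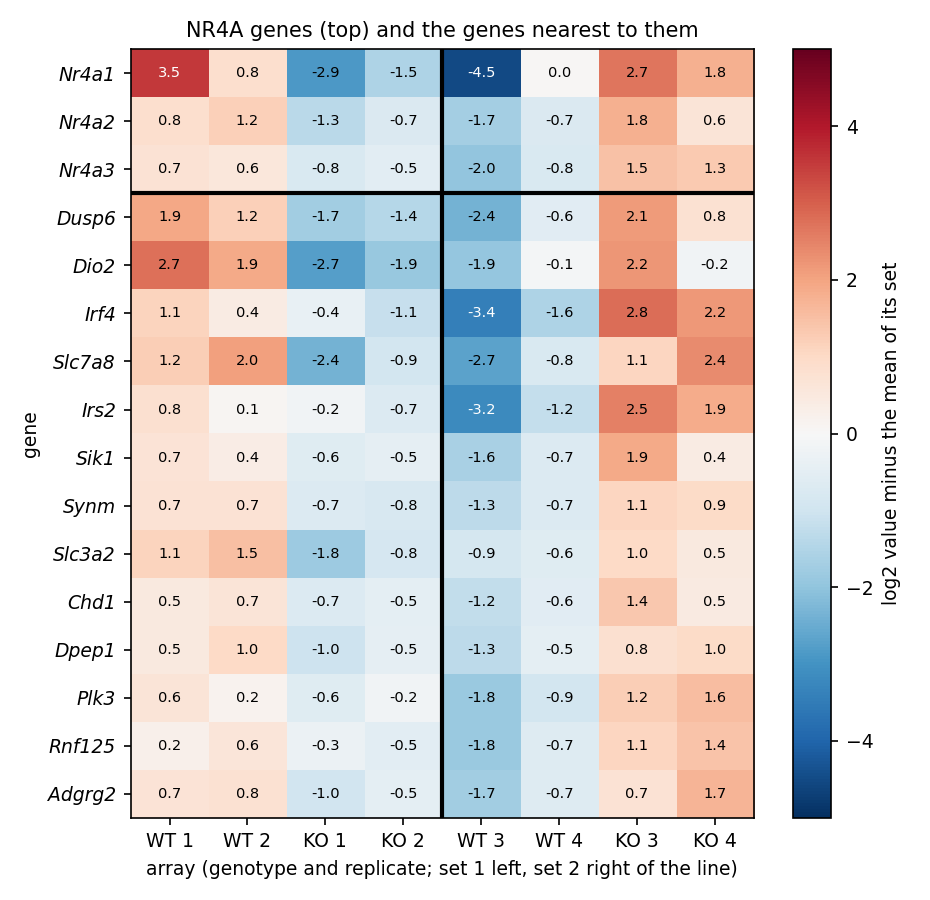
Log2 values relative to the mean of the set (colour scale and numbers) on 8 arrays (columns, set 1 left and set 2 right of the line) for the 3 NR4A genes and the 13 genes nearest to them (rows). KO columns are low and WT columns high in set 1, and the reverse in set 2 except for Dio2 in KO 4; WT 3 is the lowest array of set 2 in every row.

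These near genes were picked for a profile like that of the members, which turns between the sets, so their differences are a description with no test. Irf4 read 9.59 and 8.83 in KO against 11.10 and 10.40 in WT of set 1, and 14.46 and 13.83 against 8.25 and 10.10 in set 2, differences of -1.54 and 4.97. KO was low and then high without overlap. Slc3a2 differed by -2.64 and 1.49 and Synm by -1.46 and 2.02. Plk3 differed by -0.81 and 2.77, and Dpep1 by -1.49 and 1.77. Dusp6 read 5.78 and 6.10 in KO against 9.44 and 8.70 in WT of set 1, and 10.47 and 9.12 against 5.95 and 7.79 in set 2. Among the 10 largest called changes, named after their values were seen, Cyp2b10 (-1.66 and 3.50) and Vnn1 (-0.88 and 2.59) turned like the NR4A genes. Insig1, a brake on sterol synthesis (2.79 and -3.01), Ppp1r3c, a glycogen-targeting subunit (1.62 and -2.24), and Otop1, a proton channel of brown fat (1.45 and -1.95), turned the other way.

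Markers of other tissues and cells were set beside the NR4A values array by array. The mean of 30 skeletal muscle markers was 5.94 and 8.23 in KO and 7.38 and 6.92 in WT of set 1, and 5.58 and 9.53 in KO and 9.93 and 8.52 in WT of set 2. In set 2 all 30 markers were lower in KO (median -1.247), with KO replicate 3 lowest and KO replicate 4 between the WT arrays, while both KO arrays were high in all 3 NR4A genes. The part of muscle RNA was not tested. In set 1 the 18 liver markers averaged 11.51 and 8.54 on the KO arrays, against 8.31 and 6.64 on the WT arrays. KO replicate 1 had the highest liver mean there and the lowest mean NR4A level, 5.39. KO replicate 2 and WT replicate 1 had similar liver means, yet their mean NR4A levels were 6.13 and 8.75. WT replicate 2 had the lowest liver mean, with a mean NR4A level of 7.92, below that of WT replicate 1. The part of liver RNA in the set 1 difference was not tested. In set 2 liver markers read 5.32 and 5.50 against 5.38 and 5.33, a median difference of 0.067, and there the NR4A differences were 4.48, 2.40 and 2.76. Clock genes differed too, with medians of 0.198 in set 1 and -0.568 in set 2. Dbp, a clock output factor called within set 2, read 7.39 and 7.26 in KO against 10.04 and 9.79 in WT there, and 5.29 and 5.68 against 5.20 and 5.20 in set 1. No label gives the time of collection, and its part in the NR4A differences was not tested.

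Marker lists of cell types in the tissue had medians between -0.087 and 0.16 in both sets. Of 15 macrophage markers 12 were higher in KO in set 1 (median 0.074) and 12 in set 2 (median 0.16), and the mean ran from 5.45 to 5.75 in KO and 5.44 to 5.63 in WT of set 1, and from 7.14 to 7.31 and 6.92 to 7.14 in set 2. Of 14 endothelial and mural markers 4 were higher in set 1 (median -0.053) and 7 in set 2 (median -0.017). Of 10 nerve and Schwann cell markers 9 were higher in set 1 (median 0.036) and 5 in set 2 (median 0.017), and the mean stayed between 3.75 and 4.77, near the level of olfactory receptor genes. Blood cell markers (6 measured) had medians of -0.002 and 0.06. Brown adipocyte markers (17 measured) had medians of 0.000 and -0.087, with 1 called for the change between the sets (Otop1). Single markers of this list differed widely, from -4.63 (Dio2) to 1.45 (Otop1) in set 1 and from -1.95 (Otop1) to 2.02 (Dio2) in set 2. Dio2 and Ppargc1a are also in the list of other cAMP-induced early genes.

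**Figure D4:**
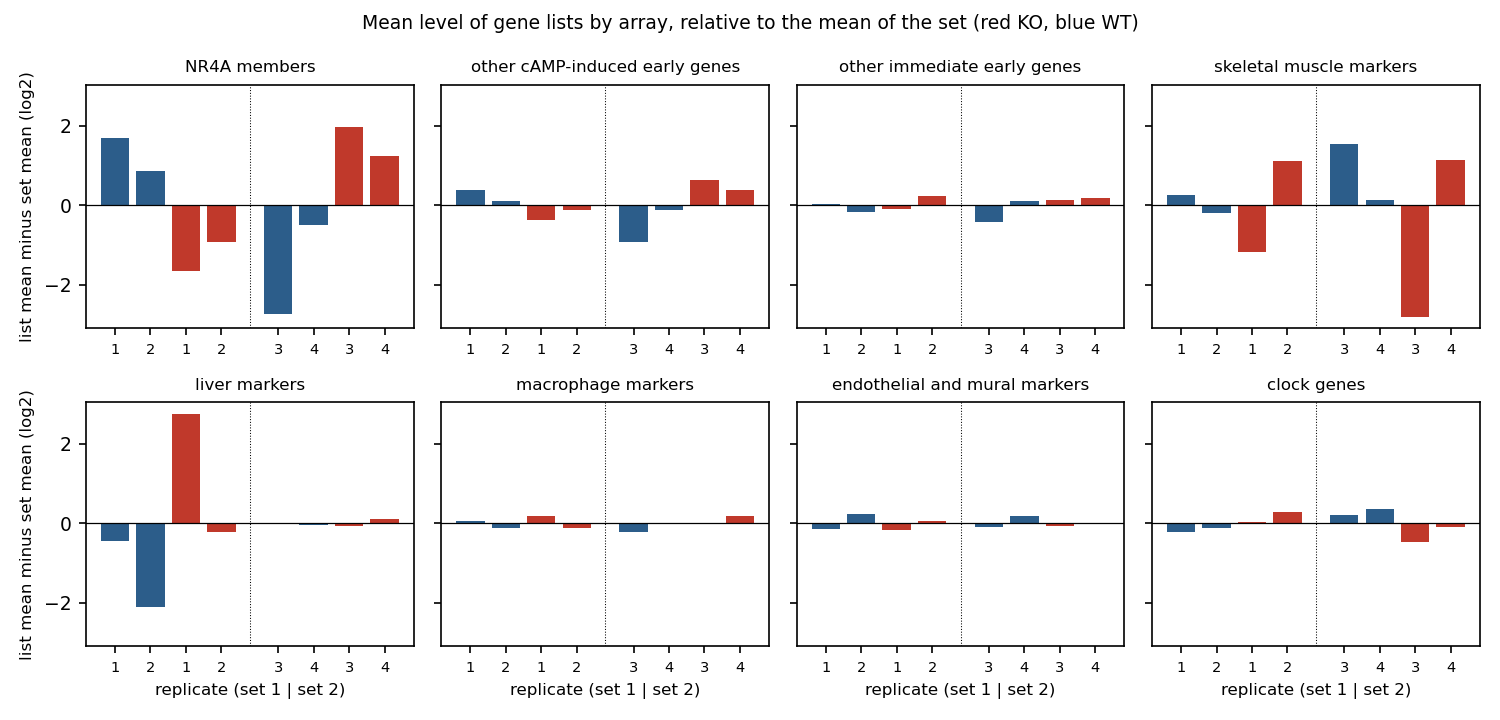
Mean log2 level of 8 gene lists on each array minus the mean of its set (vertical axis), for WT (blue) and KO (red) replicates (horizontal axis, set 1 left and set 2 right of the dotted line). NR4A genes and other cAMP-induced early genes are low in KO in set 1 and high in KO in set 2. Clock genes turn the other way, high in KO in set 1 and low in KO in set 2. Liver markers are high in KO in set 1, and the genotypes overlap in set 2. The lists of other immediate early genes, muscle, macrophages and endothelium turn in neither way.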

How the data were processed

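Total RNA of 8 mice was hybridized to Affymetrix arrays, 1 per mouse and without technical replicates. The deposited log2 values are RMA values that the authors obtained with Expression Console (core exons), per the labels and the submitters' processing notes. No source used here gives its version or a genome build, and the array type was not settled. Of 72688 probe sets, 6732 were controls, 31216 had 1 gene in the platform annotation, 1534 several and 33206 no name. Symbols were updated by gene identifier from a RefSeq table (assembly GRCm38.p6), which matched 23553 probe sets. For 364 genes with more than 1 probe set, that with the highest mean was used.

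Replicates 1 and 2 (set 1) and 3 and 4 (set 2) differ in distribution and were treated as normalized apart. limma 3.58.1 (R 4.3.3) was fitted on all genes, with 4 means (genotype by set) and no filter, and contrasts for KO minus WT averaged over the sets, within each set, and between the sets (Benjamini-Hochberg adjusted p under 0.05). The fit was tested on simulated data for KO minus WT averaged over the sets only. The contrasts within and between the sets were not simulated. The precision is limited by 2 arrays per genotype and set. The p-values measure the spread between these mice.

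The members, the 15 gene lists and the tests were chosen with earlier results of these data known. Besides fixed reference genes and the 5 nearest genes per member, up to 4 genes per list were named, those with the largest averaged difference above the median level; genes sharing the members' pattern and the largest changes between the sets were named after their values were seen. No sequences of these genes were used here.

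KO and WT arrays with the same replicate number deviated from their group means with correlations of 0.701, 0.473, 0.478 and 0.61. After the set was also removed these were 0.107, 0.107, -0.0887 and -0.0887. What the numbers share is thus mostly the set, a term of the fit. Alternatives are given at the end.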

Additional observations from a re-analysis of the deposited data

Results flagged for a closer look

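For the 3 members every KO array lay below every WT array in set 1 and above every WT array in set 2. The change of KO minus WT between the sets was 8.88 for Nr4a1, 4.46 for Nr4a2 and 4.02 for Nr4a3. The genes were chosen on these values, so no test of the change is given for them and the difference counts as not tested. Over all genes, limma also called this change for Irf4 (6.51), Slc3a2 (4.13), Plk3 (3.58), Synm (3.48) and Dpep1 (3.26). These 5 genes were named for a profile like that of the members, so their calls support nothing about the pattern. Among 13 alternatives the call held in 2 for Irf4, 3 for Slc3a2, 1 for Plk3, 5 for Synm and 2 for Dpep1. Dbp changed in the opposite direction (-2.87), a call that held in 4 of 13 alternatives.

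Single arrays lay far from the other 3 of their genotype for Ccn1 and Gadd45b (WT replicate 4, at 11.54 and 8.95), Ucp3 (KO replicate 3, at 13.05) and Lpin1 (KO replicate 4, at 16.91). These are 4 of 156 groups of 4 arrays examined (78 genes), each holding arrays of both sets. Chance alone marks about 1 in 20 groups in this way if the 4 arrays are alike. The sets differ in level, so that rate is only a rough guide here.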

How the results depend on the processing

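For the average over the sets, using set 1 alone gave -4.41, -2.06 and -1.26 for Nr4a1, Nr4a2 and Nr4a3, and set 2 alone gave 4.48, 2.40 and 2.76, which are the within-set values. With 1 array left out the averages ran from -1.10 to 1.18, -0.11 to 0.45 and 0.45 to 1.05. The set 1 differences ran from -5.75 to -3.06, -2.37 to -1.74 and -1.38 to -1.14, and the set 2 differences from 2.20 to 6.76, 1.84 to 2.96 and 2.16 to 3.36. KO and WT values did not overlap within a set, so leaving out 1 array could not turn a sign. Nothing is read from the kept signs. Quantile normalization, median centring and dropping the set term moved no member's difference by more than its spread between arrays. The median of the other cAMP-induced early genes was -0.29 in set 1 and 0.87 in set 2, and 0.14 to 0.36 over both with 1 array left out.

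The count of genes called for KO against WT was 0, also with the replicate number as a block, and 0 to 3 with 1 array left out. Within set 1 it was 0 to 14 with 1 array left out. Within set 2 the 1 call became 0 after quantile normalization and with set 2 alone, and the count was 0 to 10 with 1 array left out. The 152 genes called for the change between the sets became 82 after median centring, 379 when only genes above the median level were tested (fewer genes tested), 4 with trended and robust variances, 3 with the replicate block, and 0 to 10 with 1 array left out, a fit in which the lone array of its genotype and set is assumed to vary like the others. The cause was not tested for the other alternatives. All alternatives for the within-set and between-set results were chosen after seeing the data. Low signal limits Nr4a3 in KO of set 1.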
